A study of Mus musculus with 7 samples.

Results

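The central region of the synaptonemal complex was followed through 5 genes, chosen by name as the transverse filament and central element genes *Sycp1*, *Syce1*, *Syce2*, *Syce3* and *Tex12*, out of 21928 genes counted. RNA was sequenced from testes enriched for preleptotene spermatocytes, of 4 wild-type pups and 3 *Meioc*-null pups, each library made from 1.5 testes of a single pup. All pups were C57BL/6N and received the same drugs to synchronize spermatogenesis: WIN 18,446, which blocks the synthesis of retinoic acid, at 0.1 mg per g body weight on each day from P2 to P8, and retinoic acid at 0.0125 mg per g on P9, with testes taken 6.75 days after that injection. The null pups carried the *Meioc* tm1.1Dpc null allele, backcrossed to C57BL/6N, and the other pups were labelled wild type. Spermatogonia that respond to retinoic acid together reach the preleptotene stage, the stage of premeiotic DNA replication, in near synchrony under this treatment. The study describes MEIOC as a protein that raises the competence of male germ cells to begin meiosis. The question put to the 5 genes is whether their transcripts are less abundant where MEIOC is missing.

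The synaptonemal complex is the protein ladder that holds homologous chromosomes together along their lengths in meiotic prophase I. SYCP1 forms the transverse filaments, the rungs that span the gap between the axes of the paired chromosomes, and SYCE1, SYCE2, SYCE3 and TEX12 build the central element that runs down the middle of the gap. In the mouse each of these proteins is needed for synapsis and fertility. The structure is assembled in zygotene and pachytene spermatocytes, after the preleptotene stage for which these whole testes were enriched.

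The libraries held between 12537852 and 20552702 estimated counts, and 3 counts in a library corresponded to 0.151 to 0.236 CPM, the counts scaled to a common library size by the TMM method. A floor of this kind covers counting error only. The replicates are separate pups, and no pair of libraries of a group differed by as little as counting noise. Transcripts of *Meioc*, the mutated gene, were at 466, 658, 662 and 718 CPM in wild-type replicates 1 to 4 and at 399, 299 and 412 CPM in *Meioc*-null replicates 1 to 3. Every wild-type library was above every null library, although the null libraries still held 299 CPM or more of it. The log2 fold change was 0.76 (SE 0.16, adjusted p = 0.0207, quasi-likelihood test of edgeR, Benjamini-Hochberg adjusted), and over the alternatives tried the adjusted p lay between 9.13e-05 and 0.0997. Its call was lost without any one of replicates 2 to 4 of the wild type, and without null replicate 2 or null replicate 3, with log2 fold changes of 0.63 to 0.84 and adjusted p of 0.0524 to 0.0638. The germ cell markers *Ddx4*, a germ cell RNA helicase, and *Dazl*, a germ cell translation factor, were abundant in all 7 libraries, with summed levels of 1232 to 1395 CPM in wild type and 836 to 971 CPM in the null. *Meiob*, a marker of leptotene and zygotene spermatocytes, lay at 3.69 to 7.55 CPM in wild type and at 1.41 to 1.97 CPM in the null. The pachytene marker *Piwil1* lay at 2.31 to 4.26 CPM in wild type and 4.28 to 6.86 CPM in the null, and the spermatid markers *Prm1* and *Prm2* had 0 counts in every library.

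The 5 genes lie on 5 chromosomes of the mouse genome build GRCm38. *Sycp1* (ENSMUSG00000027855) spans chromosome 3 from 102818499 to 102936100 on the minus strand, *Syce1* (ENSMUSG00000025480) chromosome 7 from 140777229 to 140787852 on the minus strand, and *Syce2* (ENSMUSG00000003824) chromosome 8 from 84872111 to 84888221 on the plus strand. *Syce3* (ENSMUSG00000078938) spans chromosome 15 from 89390174 to 89410503 and *Tex12* (ENSMUSG00000032065) chromosome 9 from 50556819 to 50561325, both on the minus strand. *Tex12* lies within *Il18*, and the end of *Syce2* overlaps *Gcdh*, in each case on the opposite strand, and reads were counted by strand. Since the 5 genes moved together between the genotypes, their promoters were searched on both strands for 3 short motifs of the regulators that the study names. These were CCTCAG, which reads CTGAGG on the other strand and is the core of the motif of the STRA8-MEIOSIN transcription factor, TCCCGC, which reads GCGGGA on the other strand and is a core of sites of the E2F family to which E2F6 belongs, and CACGTG, the E-box read by MAX and its partners such as MGA. The windows ran from 250 bases before to 50 bases after each RefSeq start site, on GRCm38.p6. All 5 genes had a window. CTGAGG or its complement occurred in windows of 4 of the 5 genes, against 29.4% of the 27025 genes with a window. TCCCGC or its complement occurred for 3 of the 5, against 22.0% of all genes, and CACGTG for 3 of the 5, against 8.09%. The 3 genes *Sycp1*, *Syce2* and *Tex12* had all 3 motifs in a single window, as did 0.529% of all genes with a window. The study searched genes raised by MEIOC in these same libraries for motifs. It reported the STRA8-MEIOSIN motif as the top one and an E2F motif as the next. The counts of those motifs here are therefore not independent of that report. The shares are over all genes with a window, not over tested or called genes, and were not matched for base composition. The windows of the 5 genes were 54.7% to 69.3% G or C.

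The CTGAGG matches are shown first, because they are the match that most of the 5 genes share. Each line gives 10 bases on either side, read 5′ to 3′ on the gene's strand, with the motif in capitals.
*Sycp1* (chr3:102936053-102936078, minus strand): ccaggaggttCTGAGGggaagctcac
*Syce1* (chr7:140787817-140787842, minus strand): gctgcggcagCTGAGGaagtggagca
*Syce2* (chr8:84872209-84872234, plus strand): gcagagggcgCTGAGGcgggaaaaga
*Tex12* (chr9:50561260-50561285, minus strand): tgctgcggctCTGAGGcggcaggtcg
The motif began 33 bases after the RefSeq start of *Sycp1* and 23 bases after that of *Syce1*. In *Tex12* it began 7 bases before the RefSeq start, which lies 57 bases inside the gene as annotated by GENCODE. In *Syce2* it began 39 bases before the second of the 2 RefSeq starts, which lies 147 bases inside the gene. The matches of *Tex12* and *Syce2* therefore also lie inside the annotated genes. In *Syce2* the last base of CTGAGG is also the first of a GCGGGA, so those matches of different motifs overlap by that base. The upstream stretches of the 3 genes that held every motif are printed next, from the same strands, to show the sequence before the transcript. Capitals mark the E-box in *Sycp1*, an E2F core of the first window in *Syce2* and both in *Tex12*, and the other matches lie outside these stretches.
*Sycp1* upstream (chr3:102936101-102936350, minus strand): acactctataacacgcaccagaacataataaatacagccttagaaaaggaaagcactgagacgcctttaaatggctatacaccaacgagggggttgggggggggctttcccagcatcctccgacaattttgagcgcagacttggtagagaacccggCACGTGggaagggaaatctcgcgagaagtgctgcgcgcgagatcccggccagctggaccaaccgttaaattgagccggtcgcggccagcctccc
*Syce2* upstream of its first start (chr8:84871861-84872110, plus strand): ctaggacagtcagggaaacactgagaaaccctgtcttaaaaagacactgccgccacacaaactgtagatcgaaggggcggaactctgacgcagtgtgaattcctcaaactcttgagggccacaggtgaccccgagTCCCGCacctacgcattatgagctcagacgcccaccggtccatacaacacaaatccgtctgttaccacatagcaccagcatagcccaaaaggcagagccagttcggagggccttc
*Tex12* upstream (chr9:50561326-50561518, minus strand): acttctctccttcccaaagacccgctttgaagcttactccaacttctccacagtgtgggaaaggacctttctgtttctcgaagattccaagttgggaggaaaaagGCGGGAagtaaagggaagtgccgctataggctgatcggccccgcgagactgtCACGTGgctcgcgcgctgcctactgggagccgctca
The E-box began 94 bases before the RefSeq start of *Sycp1*, 88 bases before the second RefSeq start of *Syce2* and 93 bases before that of *Tex12*. Measured from the GENCODE starts, the distances for *Syce2* and *Tex12* would be different. The *Syce2* E-box lies inside the gene, whose counted transcripts both start at 84872111. The TCCCGC of *Sycp1* began 3 bases after its start, and the GCGGGA of *Tex12* began 145 bases before its start. In *Syce3* none of the 3 motifs was found in the windows of either of its 2 starts, which says only that these letters are not in those windows. Among the 8 axis genes described further on, 3 had CTGAGG or its complement, 5 had TCCCGC or its complement and 3 had CACGTG. *Hormad1* was in each of these axis counts. Of the ZMM and synapsis initiation genes described further on, 9 had a window. Among these, 3 had CTGAGG or its complement, 7 had TCCCGC or its complement and 1 had CACGTG. A match is a string of letters, and binding at these positions was not measured in these libraries.

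**Figure D1:**
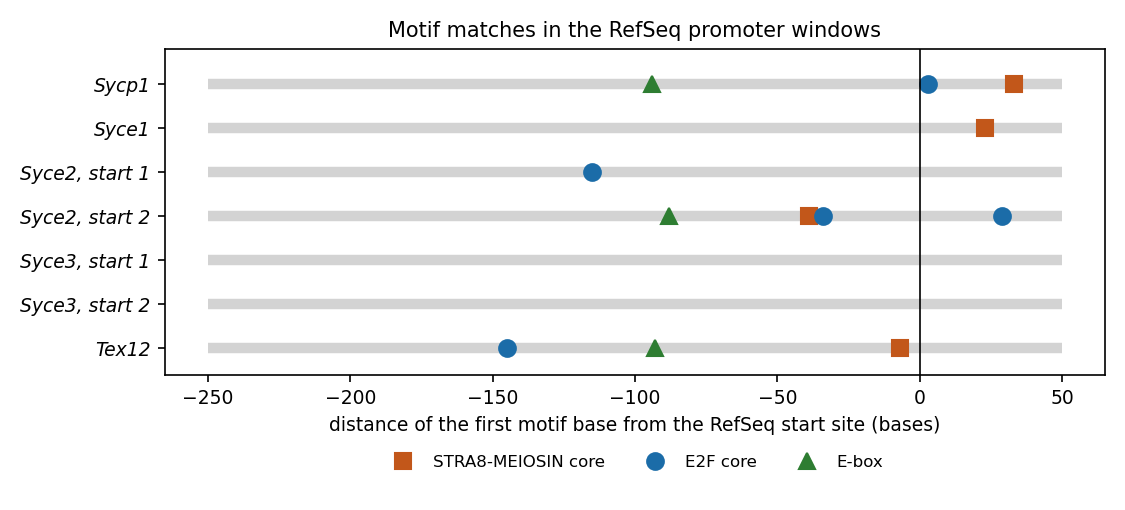
Positions of the 3 motifs in the RefSeq promoter windows of the 5 central region genes; the x axis is the distance in bases of the first motif base from the start site, grey bars are the windows and symbols the matches. Measured from the RefSeq starts, the E-boxes of *Sycp1*, *Tex12* and the second start of *Syce2* lie 88 to 94 bases upstream. The *Tex12* start lies 57 bases and the second *Syce2* start 147 bases inside the gene as annotated by GENCODE. *Syce3* has no match in either window.

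All 5 central region genes were more abundant in wild-type than in *Meioc*-null testes, by 1.77-fold to 3.23-fold. All 5 passed the low-value filter and were called higher at an adjusted p under 0.05, where the share called higher was 7.77% of the 13630 tested genes and the share called lower 3.33%. In total 11.1% of the tested genes were called. The split of all calls, 1059 higher and 454 lower, depended on the scaling: with library size alone it was 814 higher and 899 lower, and with limma on log2(TPM + 1) it was 440 higher and 2082 lower. For each of the 5 genes, every wild-type library was above every null library in CPM, an order seen for 15.4% of tested genes, and 26.2% had no overlap in either direction. The median log2 fold change of the 5 genes was 0.98, beside -0.0065 over all tested genes. In bulk testes, fewer cells that carry a transcript and less of the transcript per cell cannot be told apart, and this holds for every fold change given here.

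**Figure D2:**
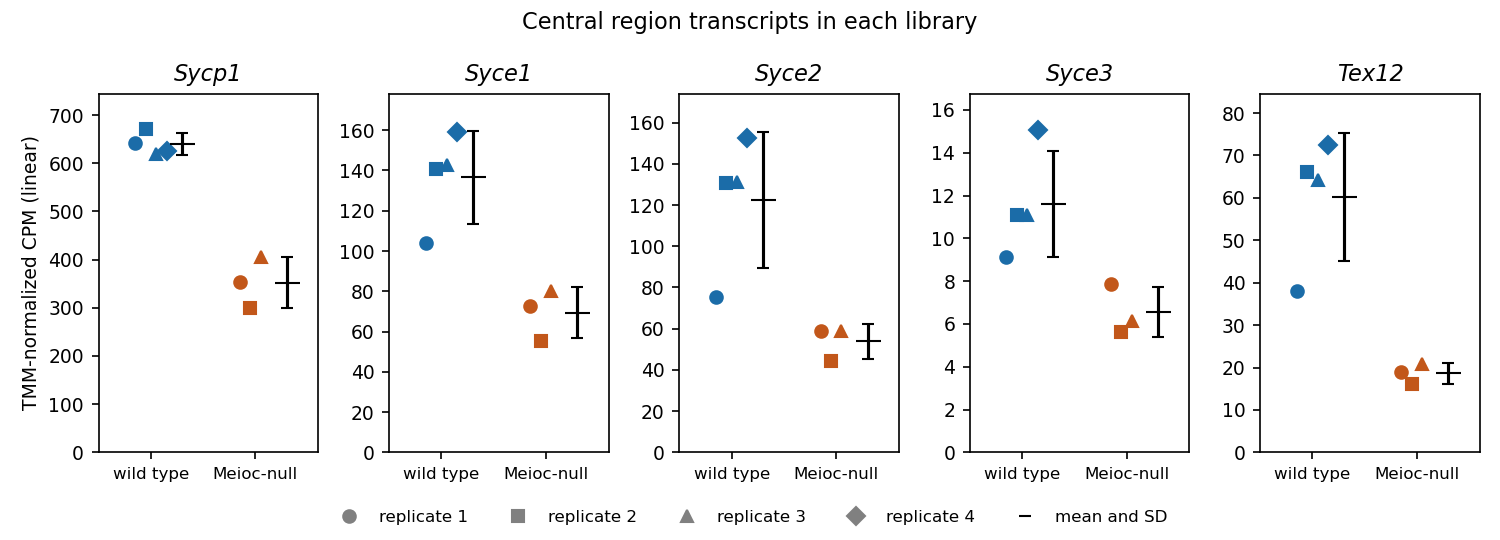
Level of each central region gene in each library; the y axis is TMM-normalized CPM on a linear scale from 0, drawn separately for each gene, with blue wild-type and orange *Meioc*-null libraries, replicate numbers as shapes, and the mean and SD beside each group. No null library reaches a wild-type library for any gene, the *Sycp1* wild-type libraries lie closest together at 618 to 671 CPM, and wild-type replicate 1 is the lowest wild-type library for the other 4 genes.

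*Sycp1*, which encodes the transverse filament protein, had the highest level of the 5 in every library, by CPM and by TPM. It was counted at 643, 671, 618 and 626 CPM in wild-type replicates 1 to 4 and at 353, 299 and 405 CPM in *Meioc*-null replicates 1 to 3. The wild-type libraries had a coefficient of variation of 3.63%, and the lowest of them stood 1.53-fold above the highest null library. The fold was 1.82 (log2 0.86, SE 0.10, adjusted p = 0.00392), and the call held under all 17 alternatives tried. Of its 2 annotated transcripts, Sycp1-202 held 88.5% of the gene's estimated counts in wild type and 87.2% in the null, and the longer Sycp1-201 held the rest. Both have 33 exons and 2979 coding bases, so the division between them is an estimate.

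*Syce1* and *Syce2*, genes of the central element, had similar CPM in each library, before any correction for length. *Syce1*, whose protein binds SYCE3 in the central element, was at 104, 141, 143 and 159 CPM in wild type and at 72.7, 55.3 and 80.1 CPM in the null. The lowest wild-type library, replicate 1, was still 1.30-fold above the highest null library. The fold was 1.97 (log2 0.98, SE 0.16, adjusted p = 0.0120), and all reads were given to the 1 annotated transcript. *Syce2*, whose protein assembles with TEX12 into fibres, was at 75.3, 131, 131 and 153 CPM in wild type and at 58.8, 44.2 and 59.1 CPM in the null. Wild-type replicate 1 stood well under the other wild-type libraries, at 0.544 times their mean, and 1.27-fold above the highest null library. The fold was 2.27 (log2 1.18, SE 0.22, adjusted p = 0.0162). The call of *Syce2* was lost without *Meioc*-null replicate 2 (log2 1.06, adjusted p = 0.0556) and without *Meioc*-null replicate 3 (log2 1.25, adjusted p = 0.0600), while over all its alternatives the adjusted p lay between 7.56e-07 and 0.0697. Syce2-204 held 92.6% of the gene's counts in wild type and 93.1% in the null.

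*Tex12*, the partner gene of *Syce2* at the protein level, differed most between the genotypes. It was at 38.1, 66.1, 64.1 and 72.6 CPM in wild type and at 19.0, 16.04 and 20.8 CPM in the null. The null libraries lay close together, and even wild-type replicate 1, the lowest of its group, was 1.83-fold above the highest of them. The fold was 3.23 (log2 1.69, SE 0.21, adjusted p = 0.00429), larger than that of 99.4% of tested genes, and the call held under all 17 alternatives. Without wild-type replicate 1 the log2 fold change was 1.86.

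*Syce3*, whose small protein recruits the other central element proteins to SYCP1, had the lowest CPM of the 5, which are not corrected for length, and was the one whose call was lost in the most fits without a library. It was at 9.14, 11.1, 11.1 and 15.0 CPM in wild type and at 7.88, 5.63 and 6.13 CPM in the null, from 78 to 299 counts per library. The gap between the groups was the narrowest of the 5, with wild-type replicate 1 only 1.16-fold above *Meioc*-null replicate 1. The fold was 1.77 (log2 0.83, SE 0.20, adjusted p = 0.0293). Without wild-type replicates 2, 3 and 4 in turn the log2 fold change was 0.85, 0.85 and 0.66, with adjusted p of 0.0685, 0.0720 and 0.0694. Without *Meioc*-null replicates 2 and 3 in turn it was 0.73 and 0.78, with adjusted p of 0.0911 and 0.100, and over all its alternatives the adjusted p lay between 0.00283 and 0.148. The direction was the same in each of these fits, while the side of the threshold was not. *Syce3* was also the gene whose transcripts were divided differently. Syce3-201 held 47.0%, 47.2%, 37.9% and 42.8% of the gene's counts in wild type and 35.4%, 36.7% and 25.7% in the null, so that the groups did not overlap. These shares rest on 28.6 to 128 counts of Syce3-201 per library, divided by estimation between transcripts of equal coding length, and the comparison was made after the difference had been noticed. The shares averaged 43.7% ± 4.38 (SD, n = 4) and 32.6% ± 6.00 (SD, n = 3), a difference of 11.1 percentage points (two-sided exact permutation p = 0.0571, the smallest p these library numbers allow). With only the more abundant Syce3-202 in place of the sum, the log2 fold change of *Syce3* was 0.58 (adjusted p = 0.118).

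**Figure D3:**
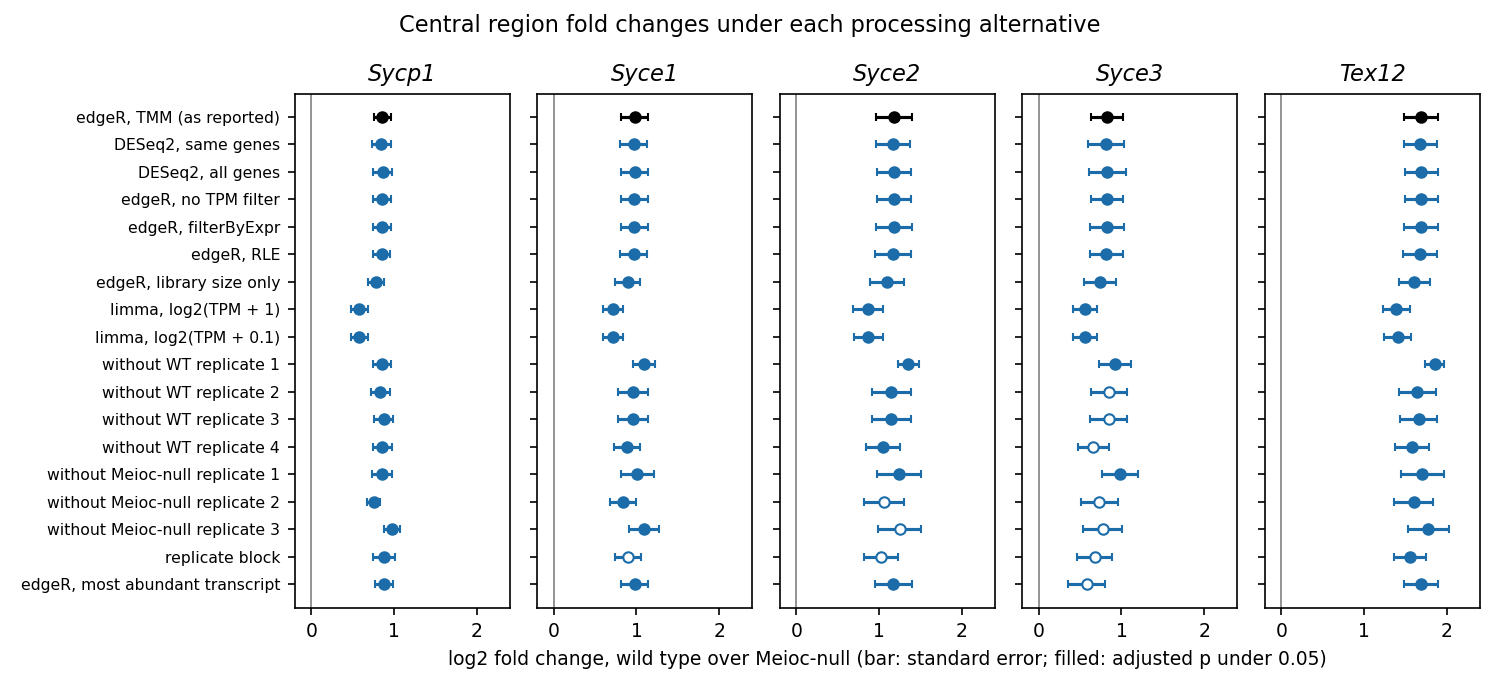
log2 fold change of each central region gene, wild type over *Meioc*-null, on the x axis under the reported fit (black) and each alternative (blue, named on the y axis); bars are standard errors and filled points have an adjusted p under 0.05. All points lie above 0, those of *Sycp1* and *Tex12* are filled throughout, and *Syce3* has the most open points.

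The number of the 5 genes called was 5 without wild-type replicate 1 or *Meioc*-null replicate 1 and 4 without any other wild-type library. It was 3 without *Meioc*-null replicate 2 and 3 without *Meioc*-null replicate 3, where far fewer genes were called among all those tested, 353 and 131. All 5 log2 fold changes stayed above 0 in every fit. On log2(TPM + 1) the median of all tested genes was at -0.23, and the 5 genes lay 0.78 to 1.62 above that median.

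Compared per transcript length, the 5 genes differed widely in level within a library. TPM values divide the counts of a transcript by the length that could yield reads and scale each library to the same total. *Sycp1* was at 938 ± 75.8 TPM (SD, n = 4) in wild type and 627 ± 71.7 TPM (SD, n = 3) in the null. *Syce2* followed at 401 ± 94.8 and 215 ± 20.4 TPM, then *Syce1* at 205 ± 26.9 and 124 ± 14.4 TPM. *Sycp1* was above *Syce2*, and *Syce2* above *Syce1*, in every library, with ranges that did not meet within either genotype. *Tex12* was at 157 ± 33.2 TPM in wild type and 58.0 ± 4.17 TPM in the null, and *Syce3* at 118 ± 23.5 and 79.6 ± 10.8 TPM. In wild type the range of *Tex12* overlapped those of its neighbours *Syce1* and *Syce3*, although within each of the 4 libraries *Tex12* was below *Syce1* and above *Syce3*. In the null the order turned over, and *Tex12* was below *Syce3* in 3 of 3 libraries. This turn depends on the length used. With CPM per kb of annotated transcript, *Tex12* was above *Syce3* in the null too, at 20.8 against 14.0. The effective length behind the TPM was 31.9% of the annotated length for *Syce3* and 31.8% for *Sycp1*, but 64.5% for *Tex12*, which raises the TPM of *Syce3* and *Sycp1* beside the others.

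The ratio of 2 genes within a library does not depend on library size, so it shows whether the genes changed by unequal amounts. The ratios of *Tex12* to each of the other 4 did not overlap between the genotypes. The ratio of *Tex12* to *Syce2* was 0.507, 0.505, 0.488 and 0.475 in wild-type replicates 1 to 4 and 0.323, 0.363 and 0.353 in *Meioc*-null replicates 1 to 3. The wild-type ratios lay within a narrow band that included replicate 1, and all were above the null ratios. The log2 difference was 0.51 (SD 0.04, n = 4 and SD 0.09, n = 3, two-sided exact permutation p = 0.0571, which is the smallest p that 35 splits of 4 against 3 libraries allow, adjusted over the 10 pairs p = 0.143). The ratios of *Tex12* to *Syce1*, *Sycp1* and *Syce3* were also higher in every wild-type than in every null library, by 0.68, 0.79 and 0.84 on the log2 scale, with the same exact permutation p of 0.0571 and adjusted p of 0.143. No pair could pass 0.05 in this design. Each of these ratios contains *Tex12*, the central region gene with the largest fold change in these same libraries. They therefore restate that fold change and are not separate tests of it. The share of other gene pairs without overlap in their ratio was not computed, so these orders have no background beside them. The other 6 pairs overlapped between the genotypes, with log2 differences of 0.05 to 0.33 and exact permutation p of 0.114 to 0.857. Among these, the ratio of *Syce2* to *Syce1* was 0.724 in wild-type replicate 1, 0.922 to 0.960 in wild-type replicates 2 to 4, and 0.738 to 0.809 in the null.

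**Figure D4:**
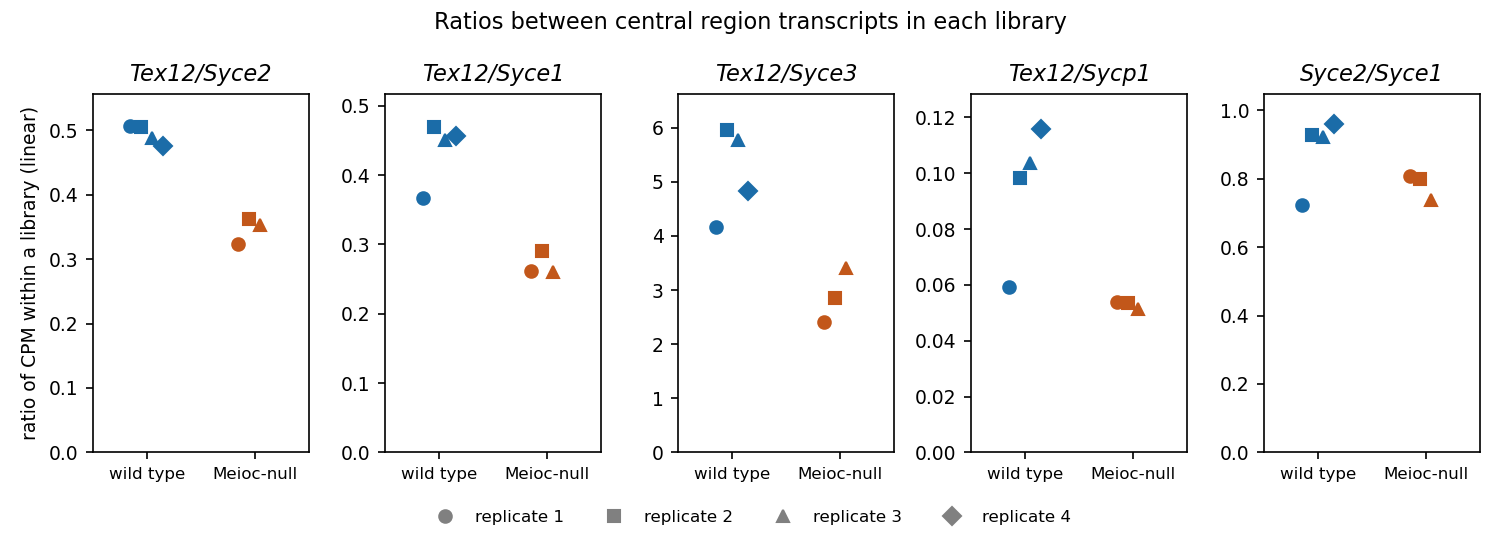
Ratio of CPM between pairs of central region genes within each library, on linear y axes from 0; blue points are wild-type and orange points *Meioc*-null libraries, with replicate numbers as shapes. The ratios of *Tex12* to each other gene are higher in every wild-type library, most tightly for *Syce2*, while *Syce2* over *Syce1* overlaps between the genotypes, with wild-type replicate 1 at 0.724.

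Germ cell markers also moved with genotype. *Dazl* was higher in wild type (log2 fold change 0.58, adjusted p = 0.0112) and for *Ddx4* the log2 fold change was 0.24 (adjusted p = 0.0813), while on log2(TPM + 1) *Ddx4* was at -0.030, where the median of all tested genes was at -0.23. Set against the mean log2 level of both markers, the 5 genes remained higher on average in wild type. The log2 ratio differed by 1.25 for *Tex12*, 0.57 for *Syce1* and 0.46 for *Sycp1*, with every wild-type library above every null library (two-sided exact permutation p = 0.0571 for each, adjusted over the 5 genes p = 0.0952). For *Syce2* the difference was 0.74 and for *Syce3* 0.40, with overlap between the groups (exact permutation p = 0.114, adjusted p = 0.114, for both). The share of all tested genes without overlap in this ratio was not computed, so these orders have no background beside them. The difference for *Sycp1* was 0.63 against *Ddx4* alone and 0.28 against *Dazl* alone. The undifferentiated spermatogonia markers *Id4*, *Gfra1*, *Etv5* and *Zbtb16* summed to 105 to 125 CPM in wild type and 141 to 228 CPM in the null, with *Zbtb16* the 1 of 4 called, lower in wild type (log2 fold change -0.86, adjusted p = 0.0213). The other 3 overlapped between the genotypes, with log2 fold changes of 0.15 for *Id4*, -0.14 for *Gfra1* and -0.47 for *Etv5*. Of the differentiating spermatogonia markers *Kit*, *Ccnd2* and *Stra8*, 1 of 3 was called, *Kit*, higher in wild type (log2 fold change 0.55, adjusted p = 0.0175). *Ccnd2* (log2 fold change -0.17) and *Stra8* (1.14) overlapped between the genotypes and were not called. The study also used *Stra8* as a marker of preleptotene spermatocytes. The sums of the 3 markers were 397 to 663 CPM in wild type and 296 to 395 CPM in the null. None of the 10 markers of Sertoli cells, fetal Leydig cells, peritubular myoid cells, endothelium and macrophages was called by edgeR, 1 had an unadjusted p under 0.05, and DESeq2 called 1 of them, in both cases the fetal Leydig cell gene *Dlk1*. On log2(TPM + 1) limma called 2 of them, *Dlk1* and *Myh11*. There 5 of the 10 had an unadjusted limma p under 0.05, *Cldn11*, *Dlk1*, *Myh11*, *Sox9* and *Tm4sf1*, each with a higher mean TPM in the null. In CPM the summed levels overlapped between the genotypes for each of these 5 lists. The leptotene and zygotene marker *Meiob* was called higher in wild type (log2 fold change 1.56, SE 0.30, adjusted p = 0.0174), on 26 to 150 counts per library. The pachytene marker *Piwil1* was not called (log2 fold change -0.70, adjusted p = 0.106). The part of these differences in cell content in the fold changes of the central region genes was not tested.

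3 further genes whose proteins belong to or act on the complex gave a mixed picture. 4930447C04Rik, which encodes the central element protein SIX6OS1, was at 159, 233, 227 and 235 CPM in wild type and at 107, 119 and 122 CPM in the null. Its log2 fold change was 0.88 (SE 0.14, adjusted p = 0.0104), close to that of *Sycp1*, and the call held under each of the 16 alternatives tried. *Fkbp6*, a cochaperone gene first described for a synaptonemal complex component, was higher in wild type by less, with a log2 fold change of 0.41 (SE 0.07, adjusted p = 0.0162). Its call was lost without wild-type replicate 2 (0.37, adjusted p = 0.0528), wild-type replicate 3 (0.41, adjusted p = 0.0522) or *Meioc*-null replicate 3 (0.39, adjusted p = 0.0680), with a range of 4.36e-05 to 0.109 over all its alternatives. *Trip13*, the ATPase that removes HORMAD proteins from synapsed axes, was at -0.20 (SE 0.12, adjusted p = 0.287) and its groups overlapped.

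The chromosome axes that the central region joins were measured through 8 genes. Each of the 8 had a log2 fold change above 0, and 7 were called higher in wild type, beside 7.77% of all tested genes. The median log2 fold change of all 8 was 1.40, beside 0.98 for the 5 central region genes and -0.0065 for all tested genes. The difference between the lists was not tested. The largest values were those of *Rad21l*, a meiotic kleisin (2.27, SE 0.29, adjusted p = 0.00501), and *Smc1b*, a meiotic cohesin subunit (1.74, SE 0.19, adjusted p = 0.00232). *Sycp3*, a core protein of the lateral element, had a log2 fold change of 1.09 (SE 0.18, adjusted p = 0.0118), and *Sycp2*, its partner, of 1.41 (SE 0.15, adjusted p = 0.00200). *Rec8*, the other meiotic kleisin, was the axis gene not called, at 0.23 (SE 0.21, adjusted p = 0.481). Leaving out any 1 library left 5 to 7 of the 8 called, where 131 to 2172 of all tested genes were called. *Sycp3* lost its call when *Meioc*-null replicate 3 was left out (1.17, adjusted p = 0.0508, range over its alternatives 8.30e-08 to 0.0553).

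The ZMM and synapsis initiation list covered 12 genes for crossover-promoting proteins and for the breaks and strand exchange that precede synapsis. Each had a log2 fold change above 0, and 9 of them were called higher in wild type, beside 7.77% of all tested genes. The median log2 fold change of all 12 was 0.77. *Hfm1*, a DNA helicase gene, reached 1.40 (SE 0.25, adjusted p = 0.0149), and *Dmc1*, the meiotic recombinase, 1.21 (SE 0.17, adjusted p = 0.00782). The call of *Hfm1* was lost without *Meioc*-null replicate 2 (1.39, adjusted p = 0.0528) or 3 (1.44, adjusted p = 0.0627, range over its alternatives 8.54e-08 to 0.0627). *Spo11*, which makes the meiotic breaks, was at 0.49 (SE 0.31, adjusted p = 0.312), *Mnd1*, a strand exchange cofactor, at 0.58 (SE 0.17, adjusted p = 0.0565), and *Rnf212b* at 0.25 (SE 0.25, adjusted p = 0.523). With *Meioc*-null replicate 3 left out the count called was 2, where 131 of all tested genes were called. With wild-type replicate 3 left out the count was 3. It was 4 with either wild-type replicate 2, wild-type replicate 4 or *Meioc*-null replicate 2 left out.

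**Figure D5:**
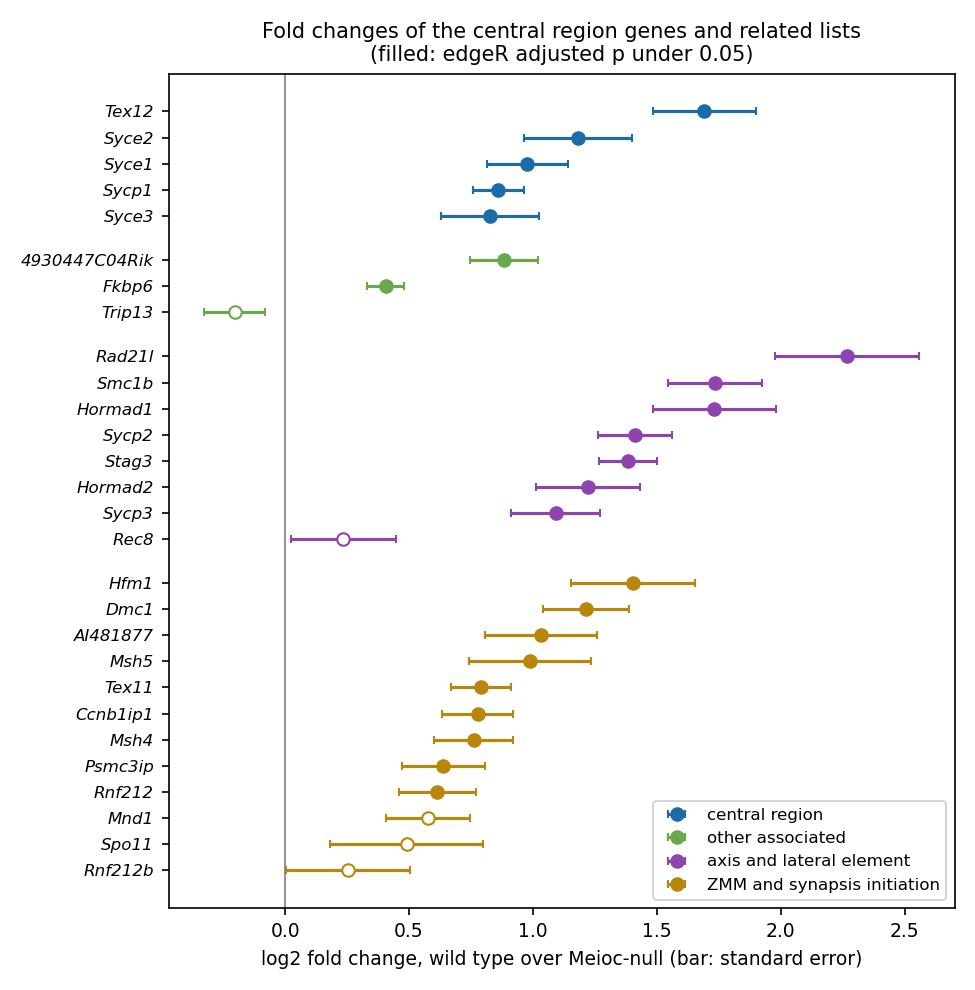
log2 fold change, wild type over *Meioc*-null, on the x axis for the 5 central region genes, 3 associated genes, 8 axis genes and 12 ZMM and synapsis initiation genes; bars are standard errors and filled points have an edgeR adjusted p under 0.05. The central region genes lie between 0.83 and 1.69, within the span of the axis genes from 0.23 to 2.27, and *Trip13* is the one gene under 0.

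Of the regulators that the study names, *Gm4969*, the gene of MEIOSIN, had the largest difference. It was at 143, 228, 265 and 250 CPM in wild type and at 33.8, 27.2 and 24.8 CPM in the null (log2 fold change 2.95, SE 0.22, adjusted p = 0.00058). *Stra8*, the gene of its partner, ranged from 126 to 409 CPM in wild type and from 77.1 to 157 CPM in the null, with a log2 fold change of 1.14 (SE 0.40, adjusted p = 0.0948). *Stra8* overlapped between the groups, while *Gm4969* did not. *E2f6*, a repressor gene, was lower in wild type (log2 fold change -0.55, SE 0.09, adjusted p = 0.0104), and for *Mga*, an E-box repressor gene, the value was 0.0088 (SE 0.10, adjusted p = 0.962).

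Across the 7 libraries the 5 genes followed each other closely. The Pearson correlation of log2 CPM of each gene with the mean of the other 4 was 0.99 for *Syce1* and *Tex12*, 0.98 for *Syce2*, 0.93 for *Syce3* and 0.91 for *Sycp1*. These values describe 7 points in 2 genotypes that stand apart for each of the 5 genes. Wild-type replicate 1 was the lowest wild-type library for *Syce1*, *Syce2*, *Syce3* and *Tex12*, at 0.544 to 0.736 times the mean of the other wild-type libraries, and wild-type replicate 4 the highest. *Sycp1* did not follow them there, at 1.01 times that mean in replicate 1, beside a median of 0.990 over the 10243 genes whose mean level was 10 CPM or more. A low replicate 1 was not particular to the central region genes. Among the axis genes the same ratio ran from 0.473 for *Rad21l* to 0.762 for *Stag3*, with *Rec8* apart at 1.00. In the null, replicate 2 was the lowest library for all 5 genes. The 5 tested genes whose log2 CPM was most like the mean of the central region genes, out of 10239 ranked, were *Ift80* (r = 0.998), *Fam90a1b* (0.997), *Hormad1* (0.996), *Nfyc* (0.995) and *Btbd10* (0.995), each over 7 libraries. Their log2 fold changes ran from 0.57 for *Ift80* to 1.73 for *Hormad1*, which encodes an axis protein.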

How the data were processed

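Bulk RNA-seq libraries (stranded total RNA, ribosomal RNA depleted) of 4 wild-type and 3 *Meioc*-null pups were grouped by the genotype in their labels. The authors trimmed reads with cutadapt 1.8 and ran kallisto 0.44.0 with strand on GENCODE Basic vM15 transcripts (versions and the build, mm10, from the submitters' processing notes). They deposited estimated counts for each protein-coding transcript, not normalized across libraries. The deposited TPM were renormalized by the authors over protein-coding transcripts, and TPM keeps no depth. Because kallisto divides reads shared by transcripts, shares of single transcripts are estimates.

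Gene names and positions came from GENCODE vM21 (GRCm38) through the Ensembl identifiers. The 119 of 43139 transcripts without a match, with 0.247% to 0.282% of each library's counts, were not used. Estimated counts were summed by gene and rounded. After TMM normalization, edgeR 4.0.16 (R 4.3.3, quasi-likelihood test, Benjamini-Hochberg) was run on the 13630 genes that reached 1 TPM in 3 or more of the 7 libraries. Every adjusted p in the text without another name comes from this test, except those of the ratios, which come from two-sided exact permutation tests in scipy 1.17.1. Fold changes are wild type over null, and SE are on the log2 scale. The fit was tested on simulated data.

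Alternatives were DESeq2 1.42.0 (with and without the filter), other filters and scalings, limma 3.58.1 on log2(TPM + 1) and log2(TPM + 0.1), a fit without each library in turn, a block by replicate number and, for the 5 genes, only the most abundant transcript. For genes outside the 5, the alternatives were added after the data were seen. The 5 genes and all lists were chosen with earlier results of these data known, so no test of a list was made. Genes named are those 5, the fixed lists, cell type markers and regulators, and the 5 genes with the highest correlation with the mean of the 5, each scaled to mean 0 and SD 1. *Shoc1* is listed as AI481877. Of the ZMM list, 9 of 12 genes had a RefSeq promoter. The depth, 12537852 to 20552702 estimated counts per library, gives the central region genes 78 to 12449 counts each.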

Additional observations from a re-analysis of the deposited data

Results flagged for a closer look

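In each group of 4 wild-type libraries, a library was marked where its distance to the nearest other was a large part of the group's range (Dixon's test). Of 48 such groups of values, 6 were marked, and chance marks about 1 in 20. That rate holds for 1 group at a time. The groups share libraries and genes, so the 6 marks are not independent of each other. Wild-type replicate 1 was the library in all 6. It was low for 4930447C04Rik (159 CPM), for the log2 ratio of *Tex12* to the germ cell markers (-3.62), for the log2 ratio of *Syce2* to *Syce1* (-0.47) and for the log2 ratio of *Tex12* to *Syce1* (-1.45). It was high for *Spo11* (4.49 CPM) and *Rnf212b* (13.8 CPM). The ratio of *Tex12* to *Syce2* was not marked, and replicate 1 lay with the other wild-type libraries there at 0.507.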

How the results depend on the processing

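*Sycp1* and *Tex12* kept their direction and call under all 17 alternatives, *Syce1* under 16, *Syce2* under 14 and *Syce3* under 10. Leaving out 1 library at a time gave log2 fold changes of 1.05 to 1.35 for *Syce2*, 0.66 to 0.98 for *Syce3* and 0.37 to 0.45 for *Fkbp6*, and 3 to 5 of the 5 genes, 2 to 9 ZMM genes and 131 to 2172 of all genes called. With only the most abundant transcript, *Syce3* was at 0.58. On the filtered genes DESeq2 called 2331 genes, limma on log2(TPM + 1) called 2522 and on log2(TPM + 0.1) 2506. With these pseudocounts limma called 5 ZMM genes each, gave *Fkbp6* 0.20 each and *Ddx4* -0.030 and -0.031, and with 0.1 *Rnf212b* was at -0.000358. The germ cell ratio of *Sycp1* was 0.63 by *Ddx4* and 0.28 by *Dazl*. The causes of these changes were not tested.

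Same-numbered libraries did not deviate together (r -0.13 to 0.02), which gives no sign that the numbers pair the pups; litter is not given in the sources used here. With a replicate block, 109 genes, 2 of the 5 genes and 2 ZMM genes were called, and the log2 fold changes were 0.90 for *Syce1* (adjusted p = 0.0553), 1.03 for *Syce2* (0.0697), 0.68 for *Syce3* (0.148) and 0.43 for *Fkbp6* (0.109). The block also ended the calls of *Dazl* (0.55, 0.0929), *E2f6* (-0.54, 0.0891), *Sycp3* (0.98, 0.0553) and *Meioc* (0.68, 0.0997). Of the 5 genes *Syce3* had the fewest counts, 78 in its lowest library.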
